A study of Mus musculus with 10 samples.

Results

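The transcripts of 6 secreted proteins were followed: the 2 ligands of the CSF1 receptor (Csf1 and Il34), the interleukin-1 family cytokines Il1b and Il18, and the cytokines Tnf and Il6. They were taken by name as 6 of the 28808 gene symbols in the tables and read in every library by day and by cell class. Csf1, Il34, Il18, Il1b and Tnf were listed in all 10 tables and Il6 in 9. The material was kidney cortex of mice aged 4 weeks, either normal (control, 1 library) or injured and taken on day 1, 2 or 4 (1 library each) or on day 7, 11 or 14 (2 libraries each). The labels name injured kidneys by day alone and give no kind of injury, strain, sex or animal. The assay was Drop-seq: droplets pair single cells with barcoded beads, and transcripts are counted at their 3' end.

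CSF1 and IL-34 bind one receptor, CSF1R, and sustain the survival and growth of macrophages; both are known products of kidney tubule cells after injury. IL-1β and IL-18 are made as inactive precursors that caspase-1, activated in the inflammasome, cuts into their active forms. TNF signals through TNFR1 and TNFR2 to NF-κB, and IL-6 signals through gp130 to STAT3. RNA levels do not show how much active cytokine was released.

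In all, 50158 of 64803 barcodes were used, with a median of 1254 to 2662 unique molecular identifiers (UMIs, counted RNA molecules) per cell by library and 6815313 to 27904106 UMIs per library. Cells were sorted into classes by raw UMIs of marker genes that hold none of the 6 members. This gave 1654 to 6166 tubular cells per library. Myeloid cells (macrophages and monocytes) numbered 47 in the control, 128, 285 and 835 on days 1, 2 and 4, 1093 and 1583 on day 7, 105 and 72 for day 11, and 38 and 48 for day 14. Tubular cells of day 7 were less often proximal, with 465 and 650 proximal cells against 3634 in the control and 3350 to 4961 on days 11 and 14. Any pair of libraries shared at most 11 barcodes. Levels are given as CPM (UMIs of the gene scaled to 1e+06 UMIs of the class in that library), and intervals are exact 95% Poisson intervals that cover counting error only.

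Csf1 lies on chromosome 3 (107741048 to 107760469, minus strand, GRCm38, GENCODE release M21), Il34 on chromosome 8 (110741829 to 110805924, minus), Il18 on chromosome 9 (50554827 to 50581840, plus), Il1b on chromosome 2 (129364570 to 129371139, minus), Il6 on chromosome 5 (30013114 to 30019981, plus) and Tnf on chromosome 17 (35199381 to 35202007, minus). All are protein-coding. Genes on the opposite strand overlap Il34 (Gm15894 and Gm15895), Il18 (Bco2 and Tex12) and Il1b (Il1bos), and whether counting used the strand is not given in the sources used here, so their reads could not be told apart. The 250 bases before the start of Csf1, Il1b and Tnf, which with Il34 were the members called higher in tubular cells on day 7, are shown 5′ to 3′ on the gene's strand, from RefSeq promoters (GRCm38.p6); Il34 has no entry there. They are chr3:107760470-107760719 for Csf1, chr2:129371140-129371389 for Il1b and chr17:35202008-35202257 for Tnf, all on the minus strand. Capitals mark a match to the NF-κB (kappa B) consensus in Csf1 and to a TATA box (TATAAA) in Il1b and Tnf.
Csf1: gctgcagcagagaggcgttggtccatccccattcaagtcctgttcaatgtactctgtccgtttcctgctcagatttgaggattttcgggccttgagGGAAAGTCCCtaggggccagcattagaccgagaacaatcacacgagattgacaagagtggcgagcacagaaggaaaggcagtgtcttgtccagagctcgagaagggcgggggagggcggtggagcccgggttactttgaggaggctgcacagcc
Il1b: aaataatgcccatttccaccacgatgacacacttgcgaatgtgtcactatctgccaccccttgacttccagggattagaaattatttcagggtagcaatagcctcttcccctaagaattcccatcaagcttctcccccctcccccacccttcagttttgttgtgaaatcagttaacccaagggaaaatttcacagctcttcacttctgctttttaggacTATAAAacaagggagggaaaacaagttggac
Tnf: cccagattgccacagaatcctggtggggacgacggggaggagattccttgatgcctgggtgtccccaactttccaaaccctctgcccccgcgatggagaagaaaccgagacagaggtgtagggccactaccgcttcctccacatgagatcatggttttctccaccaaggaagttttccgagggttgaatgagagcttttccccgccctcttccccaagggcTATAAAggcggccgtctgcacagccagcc
The kappa B match of Csf1 began 154 bases before its start, and the TATA matches of Il1b and Tnf 31 and 29 bases before theirs. The Il6 window held a kappa B match at 44 bases, a C/EBP match (TTGCNNAA) at 128 and an AP-1 match (TGANTCA) at 249, and the Il18 window a TATA match at 175. Both strands were searched, and none of these matches overlapped another. Among the 32851 promoter windows of this length in the table, 3.9% held a kappa B match, 6.75% AP-1, 9.56% C/EBP and 12.4% TATA. A match describes letters and not a bound site.

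**Figure D1:**
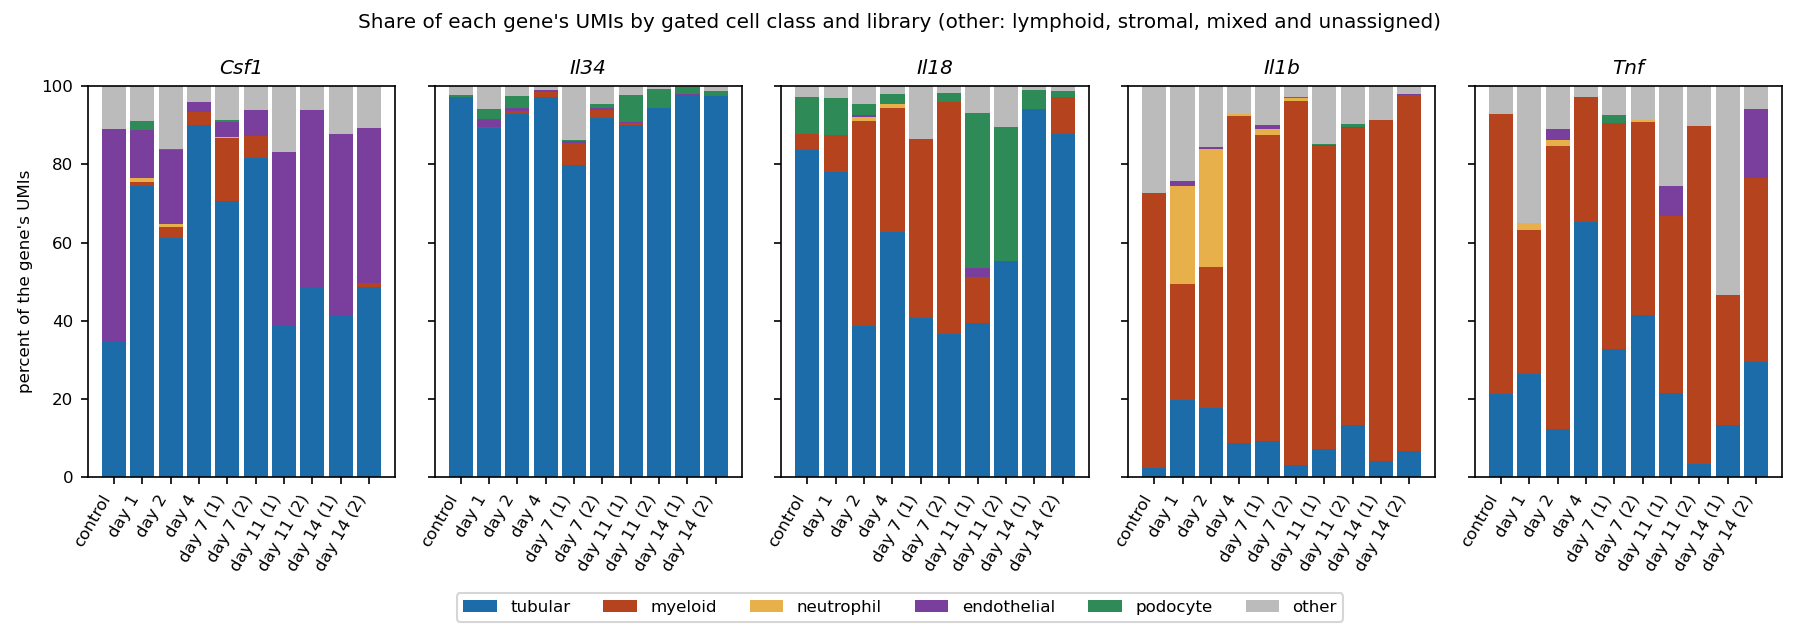
Percent of each gene's UMIs (vertical axis) found in each gated cell class, for the 10 libraries (horizontal axis; replicate in brackets). Tubular cells held most Il34 UMIs in every library, endothelial cells 54.17% of Csf1 UMIs in the control, and myeloid cells over 50% of Il1b UMIs in 8 of 10 libraries.

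Each gene had its own distribution over cell classes. Tubular cells held 93.89% of 4203 Il34 UMIs. They also held 71.34% of 3440 Csf1 UMIs, with 14.91% in endothelial and 4.36% in myeloid cells. Il1b was mainly myeloid, with 74.16% of 5864 UMIs in myeloid, 6.139% in neutrophil and 8.39% in tubular cells. Tnf was divided between myeloid (49.78% of 930 UMIs) and tubular cells (37.63%), and Il18 between tubular (57.72% of 998), myeloid (32.26%) and podocyte cells (5.812%). Il6 had 43 UMIs in all libraries together. These shares depend on how many cells of each class a library held.

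Per UMI, tubular and myeloid cells of one library were compared over 10 libraries as the mean difference of log2(CPM + 10), with a two-sided exact sign-flip permutation test and Benjamini-Hochberg adjustment over 24 such tests. Il34 was higher in tubular cells by 1.49 (SD 0.39, 10 of 10 libraries, adjusted p = 0.0156). Myeloid Il34 rested on 51 UMIs, with 0 in 4 of the 10 libraries. In the control 3 myeloid counts would be 39.39 CPM, above tubular Il34 at 16.12, so the 0 there does not show a lower level. Il1b was lower in tubular cells by 6.25 (difference -6.25, SD 2.01) and Tnf by 3.02 (difference -3.02, SD 1.13), each in 10 of 10 libraries with adjusted p = 0.0156. Their raw exact p of 0.00195 is the smallest that 10 pairs can give. Il18 was also lower in tubular cells (-1.37, SD 1.18, 8 of 10, exact adjusted p = 0.0391), which was lost (-1.32, exact adjusted p = 0.0586) when tubular cells with any myeloid or neutrophil marker UMI were left out. The 4 members called also became 3 with a pseudocount of 1 CPM and with at least 6 marker UMIs. Csf1 (0.46, higher in 9 of 10, exact adjusted p = 0.0938) and Il6 (-0.13, exact adjusted p = 0.228) did not pass. Averaging the replicates of a day, or asking for 50 cells in both classes, left 7 pairs, whose smallest possible exact p of 0.0156 could not pass the adjustment here. The differences were then 1.48 and 1.58 for Il34, -6.07 and -5.22 for Il1b, and -3.03 and -2.77 for Tnf, each with the same sign in 7 of 7 pairs. For Il18 they were -1.53 (lower in 7 of 7) and -1.34 (lower in 6 of 7).

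**Figure D2:**
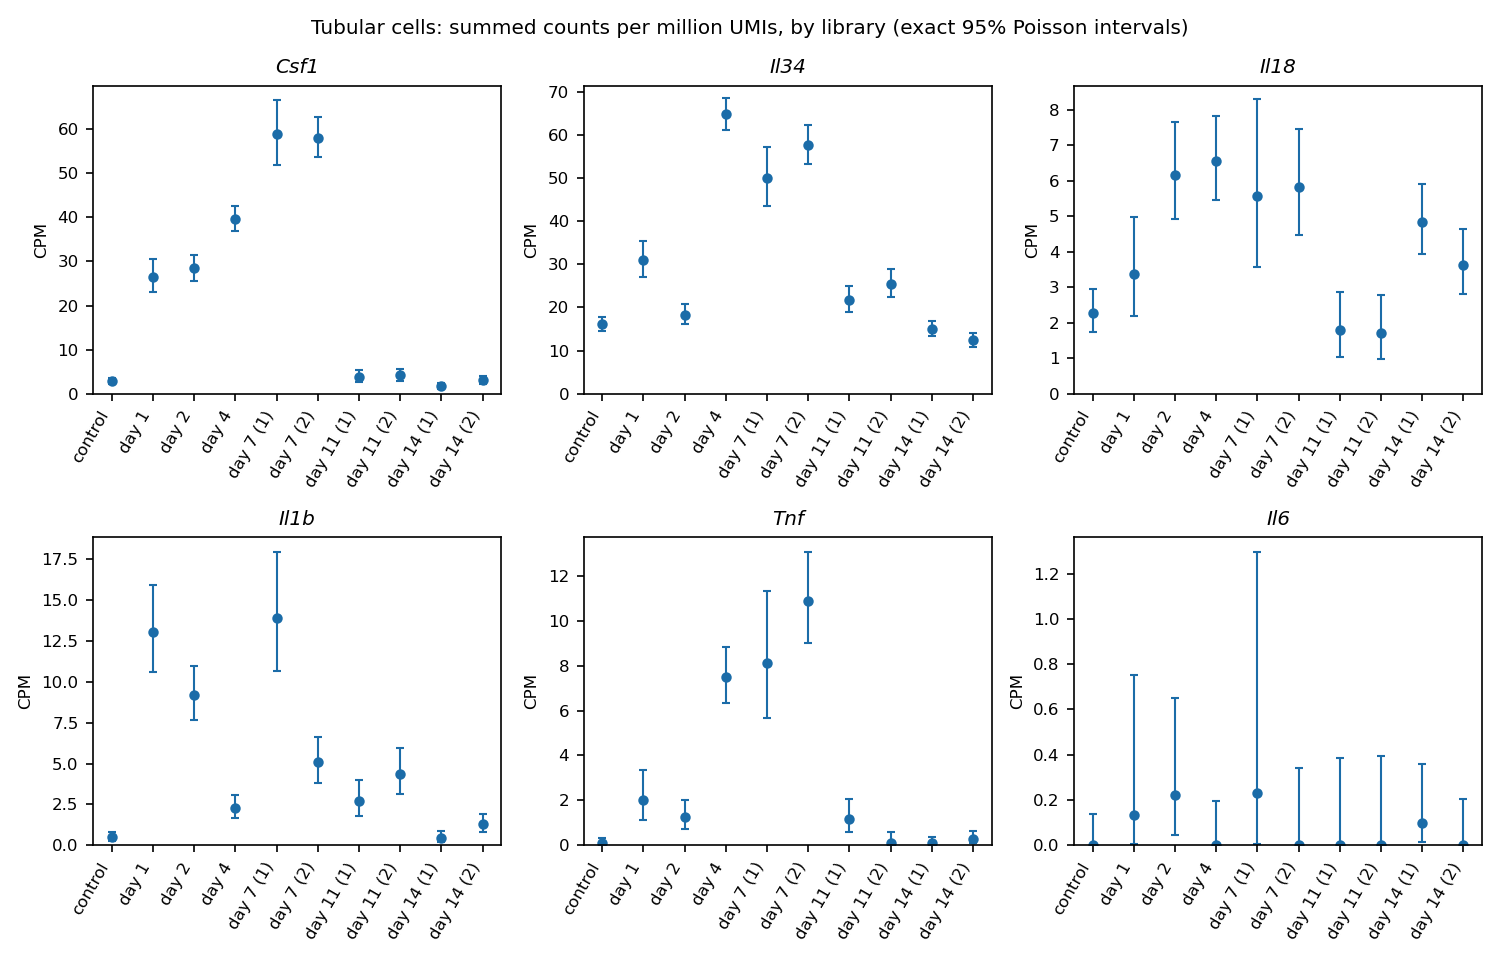
Level of each gene in tubular cells (CPM, linear axes that differ by gene) by library, with exact 95% Poisson intervals as bars. Csf1 lies at 58.8 and 58.03 on day 7 against 2.811 in the control, and Il6 at or near 0 in every library.

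Csf1, the broadly made macrophage growth factor, was low in control tubule, high on day 7 and low again by day 11. In tubular cells it stood at 2.811 CPM in the control (interval 2.211 to 3.524). It stood at 26.56 for day 1 (22.98 to 30.54), 28.45 for day 2 (25.67 to 31.44) and 39.56 for day 4 (36.79 to 42.49). It reached 58.8 and 58.03 on day 7, and stood at 3.882 and 4.173 for day 11, and 1.695 and 3.021 for day 14. The order of the levels was thus day 14, control, day 11, day 1, day 2, day 4 and day 7; the day 14 libraries lay on either side of the control, and the intervals of days 1 and 2 overlapped. In edgeR's quasi-likelihood test (Benjamini-Hochberg adjustment over 16297 genes), Csf1 rose from control to day 7 by 3.59 on the log2 scale (SE 0.33, adjusted p = 2.39e-05, 12.1-fold) and fell by 3.08 to day 11 (SE 0.26, adjusted p = 9.11e-06, 8.46-fold). Day 14 differed from the control by -0.19 (SE 0.32, adjusted p = 0.752). Days 1, 2 and 4 had 1 library each and were not tested, and the single control library was assumed to vary like the replicated days.

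Of the 5 members tested in tubular cells, 4 rose to day 7 (Csf1, Il34, Il1b and Tnf), where 34.2% of all genes tested were called in either direction, 16.2% higher and 18% lower. From day 7 to day 11, 3 fell (Csf1, Tnf and Il18), where 43.5% of all genes were called, 22.9% higher and 20.7% lower. On day 14, 0 of 5 were called against the control (7.65% of all genes in edgeR, 4.45% higher and 3.19% lower; 1 of 5, Il18, had an unadjusted p under 0.05, at 0.0183, and DESeq2 also called 0). Il6, with 7 tubular UMIs, was too low to be tested. The scaling of libraries matters for these counts. Scaling by library totals in place of TMM (trimmed mean of M-values) moved the median log2 change of all tubular genes from 0.04 to 0.81 for day 7 against control and from -0.07 to -0.84 for day 11 against day 7. Of the genes called, 47.4% were higher on day 7 with TMM, 87.3% with library totals and 44.5% with DESeq2. For day 11 against day 7 these shares were 52.5%, 15.9% and 54.6%, and for day 14 against control 58.3%, 47.9% and 61%. With library totals 5 of 5 members were called higher on day 7 and 5 of 5 lower on day 11. In bulk sums of a class, fewer expressing cells and less RNA per cell cannot be told apart.

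The nephron segments began from different Csf1 levels. Proximal cells, which reabsorb most of the filtrate, had 0.7099 CPM in the control, 14.98, 17.09 and 36.5 on days 1, 2 and 4, 51.4 and 69.1 on day 7, 1.962 and 2.191 for day 11, and 0.4638 and 0.8952 for day 14. Cells of the thick ascending limb, which takes up salt, had 0.8575 in the control, 15.59, 42.34 and 18.37 on days 1, 2 and 4, 40.88 and 18.86 on day 7, 1.697 and 2.371 for day 11, and 2.662 and 3.786 for day 14. Collecting duct cells already had 19.82 in the control, then 27.07, 49.88 and 35.83, then 40.04 and 46.62 on day 7, 12.53 and 17.25 for day 11, and 13.97 and 23.46 for day 14. The day 7 libraries lay above the control in all 3 segments. Fitted separately in edgeR, as alternatives added after the data were seen, Csf1 rose to day 7 in proximal cells by 5.55 (adjusted p = 3.96e-06) and in thick limb cells by 4.24 (adjusted p = 9.78e-05), and in collecting duct cells the change was 0.83 (adjusted p = 0.122). It fell to day 11 by 4.14 in proximal (adjusted p = 3.44e-06), by 3.17 in thick limb (adjusted p = 0.000529) and by 1.27 in collecting duct cells (adjusted p = 0.0175). The differences between segments were not tested.

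Cells gated by general or injury markers of the tubule (such as Krt8, Krt20 and Sprr2f) had Csf1 at 47.96, 52.53 and 74.99 CPM on days 1, 2 and 4, at 88.96 and 80.9 on day 7, and at 38.7 and 82.23 by day 11. Fewer than 20 such cells were found in the control and on day 14. In 33 cells of the second day 11 library Csf1 thus stood as high as on day 7, with 10 UMIs. A Vcam1 UMI, from an adhesion molecule known to mark injured tubule cells that recover poorly, also went with higher Csf1. Over the 8 libraries with at least 20 Vcam1-positive cells, Csf1 was 66.3, 39.42 and 63.68 CPM on days 1, 2 and 4, 89.52 and 91.23 on day 7, 122.8 and 112.2 on day 11 and 29.74 in the second day 14 library. Vcam1-negative tubular cells of these libraries had 21.96, 26.61, 20.29, 47.73, 41.89, 2.65, 3.551 and 2.92. Positive cells were higher in 8 of 8 libraries, by 1.61 on the log2(CPM + 10) scale (SD 1.09, exact sign-flip p = 0.00781, the smallest possible, adjusted p = 0.0375). The largest gaps stood on day 11, from 35 and 26 Vcam1-positive cells, and the second day 14 library held 21. Csf1 levels in these cells rest on few UMIs, and that of day 14 on fewer than the 3 counts used elsewhere as a floor. The smallest possible p needs all 8 libraries.

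Vcam1-positive cells had more UMIs in each of these libraries (median 1677.5 to 3647 against 1438 to 2093). Their endothelial marker UMIs were 0.3745 to 1.784 per 10000 against 0.2347 to 1.409. These were lower on day 1 (0.754 against 1.409) and higher in each other library. On day 11 they were 1.125 and 0.9351 against 0.3933 and 0.5251, and in the second day 14 library 1.784 against 0.2347. The part of depth or of endothelial markers in the Csf1 difference was not tested. Without the tubular cells that held a myeloid or neutrophil marker UMI the difference was 1.77 (exact adjusted p = 0.0625), and with at least 6 marker UMIs it was 1.63 (exact adjusted p = 0.0625), each higher in 7 of 7 pairs with the smallest exact p that 7 pairs can give (0.0156). Averaging replicates or asking for 50 cells left 6 and 5 pairs, too few to pass (smallest exact p 0.0312 and 0.0625), with Csf1 higher in 6 of 6 (1.46) and 5 of 5 (0.94). Havcr1, which encodes the injury marker KIM-1, was used in the same way. Havcr1-positive cells had 17.08, 41.6 and 50.56 CPM of Csf1 on days 1, 2 and 4 and 71.35 and 84.89 on day 7, against 36.86, 25.45 and 23.29, then 52.18 and 42.97 in Havcr1-negative cells. They were thus lower on day 1 and higher on days 2, 4 and 7. The control, day 11 and day 14 libraries held only 25 to 51 Havcr1-positive cells each, with 0 Csf1 UMIs in 4 of these 5 libraries and 6 UMIs in the first of day 11. Over all 10 libraries the difference was 0.25 (SD 0.89, higher in 5 of 10, exact adjusted p = 0.57), and with at least 50 cells in both classes 0.27 (higher in 4 of 6, exact adjusted p = 0.485). The Havcr1 and Vcam1 differences were not tested against each other.

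**Figure D3:**
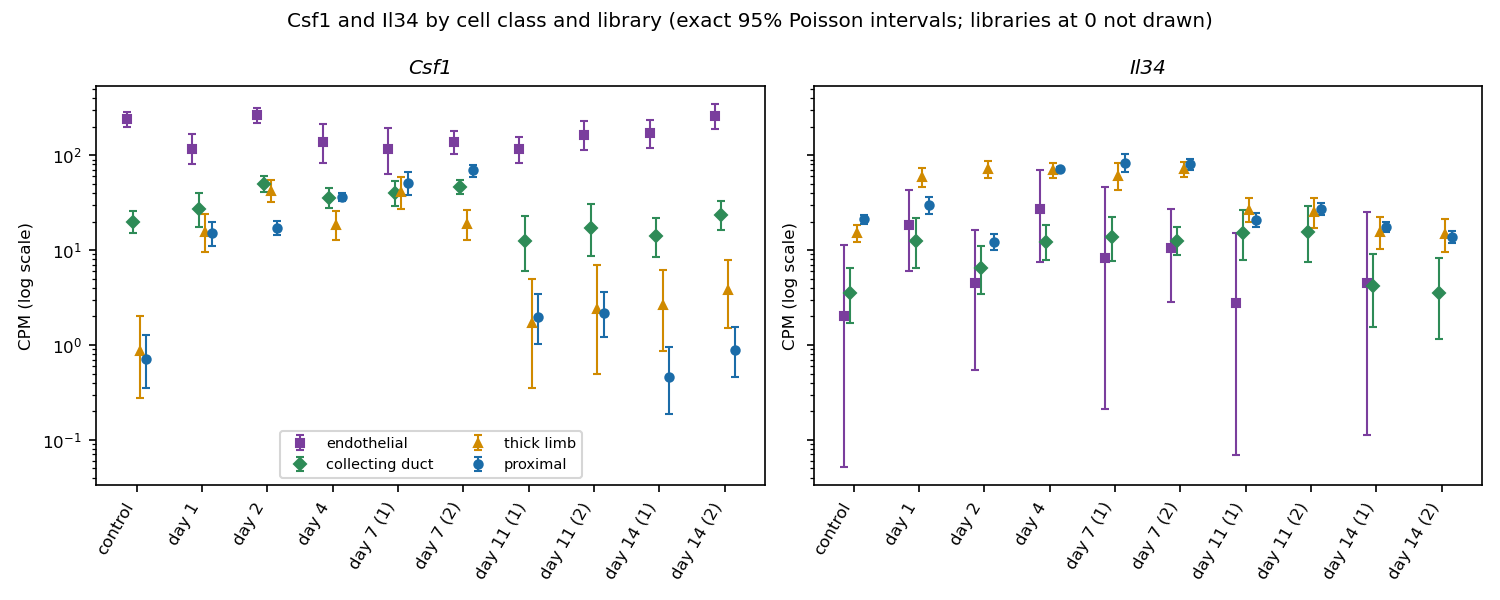
Csf1 and Il34 levels (CPM, log axis) in endothelial, collecting duct, thick limb and proximal cells by library, with exact 95% Poisson intervals; libraries at 0 are not drawn. Endothelial Csf1 lies between 115.4 and 264.3 throughout, whereas proximal Csf1 runs from 0.4638 to 69.1 and collecting duct Il34 stays at or below 15.68.

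Endothelial cells, a known resting source of CSF1, carried Csf1 in every library. Levels were 238.4 CPM in the control (interval 197.1 to 285.7), 117.7, 264.3 and 137.2 on days 1, 2 and 4, 115.7 and 136.5 on day 7, 115.4 and 164 for day 11, and 170.3 and 257.5 for day 14. The 2 day 7 libraries lay below the control, and the 2 day 14 libraries lay on either side of it. Endothelial cells held 54.17% of all Csf1 UMIs in the control, 2.387% to 18.88% on days 1 to 7 and 39.64% to 46.34% on days 11 and 14. Tubular cells held 34.72% in the control and 89.98% on day 4. In myeloid cells Csf1 had 0 UMIs in the control, which allows up to 39.39 CPM (3 counts), and 57 and 43 UMIs on day 7 (34.19 and 12.85 CPM).

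Il34, the other CSF1R ligand, was found in tubular cells in the control and on every day. Over all libraries it stood at 28.48 CPM in tubular cells, close to the 27.01 of all cells together. It was 61.6 in podocytes, 6.703 in endothelial and 6.271 in myeloid cells. Tubular cells had 16.12 CPM in the control (interval 14.63 to 17.72), 31.01 for day 1 (27.13 to 35.29), 18.27 for day 2 (16.06 to 20.7), 64.69 for day 4 (61.13 to 68.41), 49.97 and 57.66 on day 7, 21.72 and 25.47 for day 11, and 15.06 and 12.36 for day 14. Day 4 was highest and day 7 next, whereas day 2 lay close to the control with overlapping intervals. Il34 rose from control to day 7 by 0.97 on the log2 scale (edgeR, SE 0.24, adjusted p = 0.0101, 1.95-fold). Its change to day 11 was -0.42 (SE 0.19, adjusted p = 0.103), and day 14 differed from the control by -0.16 (adjusted p = 0.715). With library totals the change to day 7 was 1.74 and that to day 11 was -1.2 (edgeR adjusted p = 0.00038). Without tubular cells holding a myeloid or neutrophil marker UMI the change to day 7 was 0.73 (edgeR adjusted p = 0.0677). This rested on 97 of the 839 Il34 UMIs of day 7 and 324 of the 430 of the control.

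By segment, proximal Il34 was 21.1 CPM in the control, 29.96, 12.21 and 70.94 on days 1, 2 and 4, 82.43 and 80.13 on day 7, 20.76 and 27.17 for day 11, and 17.62 and 13.73 for day 14. Thick limb Il34 was 15.09 in the control, 59.25, 70.82 and 69.57 on days 1, 2 and 4, 60.56 and 70.73 on day 7, 26.59 and 25.29 for day 11, and 15.44 and 14.6 for day 14. Thick limb cells were thus already high on day 2, when proximal cells lay below their control level. Collecting duct Il34 ranged from 3.539 to 15.68. In edgeR fits of single segments, added after the data were seen, Il34 rose to day 7 in proximal (1.07, adjusted p = 0.00636) and thick limb cells (1.48, adjusted p = 0.00113), and the change in collecting duct cells was 1.54 (adjusted p = 0.0784). To day 11 it fell by 1.01 in proximal (adjusted p = 0.00269) and by 0.79 in thick limb cells (adjusted p = 0.0247), and in the collecting duct the change was 0.54 (adjusted p = 0.44).

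Vcam1-positive tubular cells had more Il34 than negative ones. They had 44.2, 32.16 and 94.4 CPM on days 1, 2 and 4, 97.42 and 108.5 on day 7, 143.2 and 74.81 on day 11 and 89.22 in the second day 14 library. Vcam1-negative cells had 29.48, 15.95, 40.96, 32.88, 32.96, 20.46, 25.18 and 12.07. The difference held in 8 of 8 libraries, with a mean of 1.34 on the log2(CPM + 10) scale (SD 0.65, exact sign-flip adjusted p = 0.0375), under the limits given above for Csf1. Podocytes, the filter cells of the glomerulus, also held Il34, at 20.58 to 104 CPM in the 7 libraries with at least 20 podocytes, from 58 UMIs. Podocyte cell numbers were highest on day 11 (216 and 157).

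**Figure D4:**
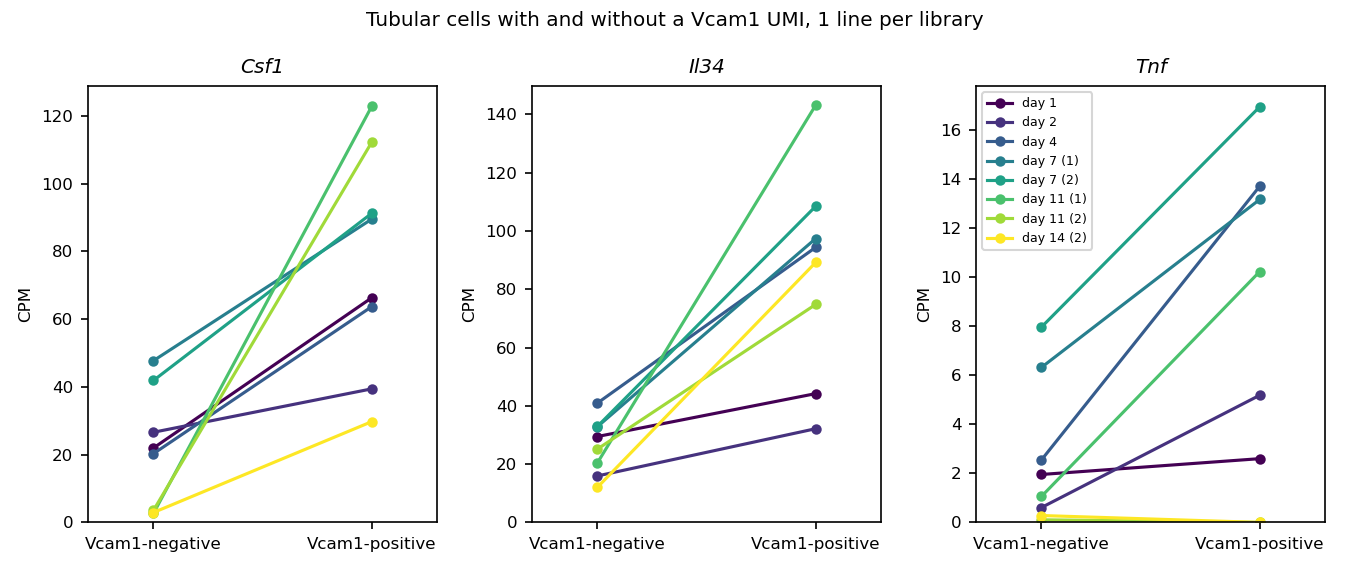
Csf1, Il34 and Tnf levels (CPM) in tubular cells without and with a Vcam1 UMI, 1 line per library for the 8 libraries with at least 20 cells in both. Every line rises for Csf1 and for Il34; for Tnf 6 of 8 rise.

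Il1b was mainly a myeloid transcript, and its level there was highest in the libraries with fewest myeloid cells: the 5 libraries with 38 to 105 of them had 1772 to 4963 CPM, and the 5 with more had 271.9 to 825.8. Myeloid cells had 4963 CPM in the control (interval 4475 to 5490, 47 cells), 825.8 for day 1 (697.3 to 971.2), 274.4 for day 2 (241.7 to 310.2), 271.9 for day 4 (246.4 to 299.2), 301.1 and 491.6 on day 7, 1772 and 1932 for day 11, and 3922 and 4106 for day 14. Days 2, 4 and 7 were lowest, and days 2 and 4 had overlapping intervals. Il1b fell in myeloid cells from control to day 7 by 3.88 on the log2 scale (edgeR over 4822 genes, SE 0.32, adjusted p = 1.03e-10, 14.8-fold). It rose from day 7 to day 11 by 2.52 (SE 0.28, adjusted p = 1.62e-07, 5.75-fold), and day 14 differed from the control by -0.48 (SE 0.33, adjusted p = 0.55).

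Of the 3 members tested in myeloid cells (Il1b, Tnf and Il18), 1 fell to day 7, where 4.11% of all genes were called, 1.66% higher and 2.45% lower. From day 7 to day 11, 2 rose (Il1b and Tnf), where 5.43% of all genes were called, 3.8% higher and 1.64% lower. On day 14, 0 of 3 were called against the control by edgeR, and 0 had an unadjusted p under 0.05; 1.39% of all genes were called, 0.622% higher and 0.767% lower. DESeq2 gave an adjusted p for 1 of the 3 there and did not call it. Of the genes called, 40.4% were higher on day 7 with TMM, 64.1% with library totals and 26.8% with DESeq2. From day 7 to day 11 these shares were 69.8%, 31.7% and 88.1%, and on day 14 44.8%, 66.1% and 46.2%. Scaling by library totals moved the median of all myeloid genes from 0.09 to 0.37, from -0.09 to -0.45 and from 0.13 to 0.28 in these comparisons; the calls of Il1b and Tnf kept their direction.

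The share of myeloid cells with an Il1b UMI was 72.34% in the control, 43.75%, 21.75% and 19.88% on days 1, 2 and 4, 19.12% and 32.66% on day 7, 67.62% and 59.72% for day 11, and 57.89% and 81.25% for day 14. After thinning to 1000 UMIs per cell, which left out from 32 of 285 cells (day 2) to 50 of 128 (day 1), it was 69.23%, 42.31%, 13.83%, 14.02%, 17.7%, 25.89%, 60.22%, 58.62%, 53.57% and 83.78%. In endothelial cells the unthinned share was 0 in the control and at most 6.742% (first day 7 library), and after thinning it was at most 2.83% (day 1). Median depths there were 916 to 1602 UMIs against 1105 to 2454 in myeloid cells.

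The make-up of the myeloid class also differed between days. Cells with at least 2 UMIs of C1qa, C1qb and C1qc, complement genes known from tissue macrophages, were 80.85% of myeloid cells in the control, 14.84% on day 1, 27.37% on day 2, 45.27% on day 4, 73.74% and 79.15% on day 7, 77.14% and 81.94% for day 11, and 65.79% and 50% for day 14, when both libraries lay below the control. The day 1 library held only 19 C1q-positive cells, fewer than the minimum for a reported class, so its level below is given with that limit. Within C1q-positive cells Il1b was 6768 CPM in the control, 911.3, 212.2 and 131.8 on days 1, 2 and 4, 307.6 and 460 on day 7, 1684 and 1875 for day 11, and 4779 and 4138 for day 14. The fall to day 7 was 4.24 in these cells alone (edgeR adjusted p = 1.79e-12) and the rise to day 11 was 2.51 (adjusted p = 8.34e-08). Without myeloid cells that held a neutrophil marker UMI they were -3.83 (adjusted p = 2.19e-09) and 2.46 (adjusted p = 1.6e-06). C1q-positive and C1q-negative cells of one library did not differ past the threshold in any of the 6 genes over 6 libraries (exact sign-flip tests; Il1b -0.43, adjusted p = 0.25). The smallest exact p that 6 pairs can give, 0.0312, could not pass the adjustment here, so these tests could not show a difference.

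Neutrophils reached 20 cells on days 1 and 2 alone (30 and 41 cells), with Il1b at 3048 and 4660 CPM. They held 123 of 492 and 212 of 704 Il1b UMIs of those libraries.

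**Figure D5:**
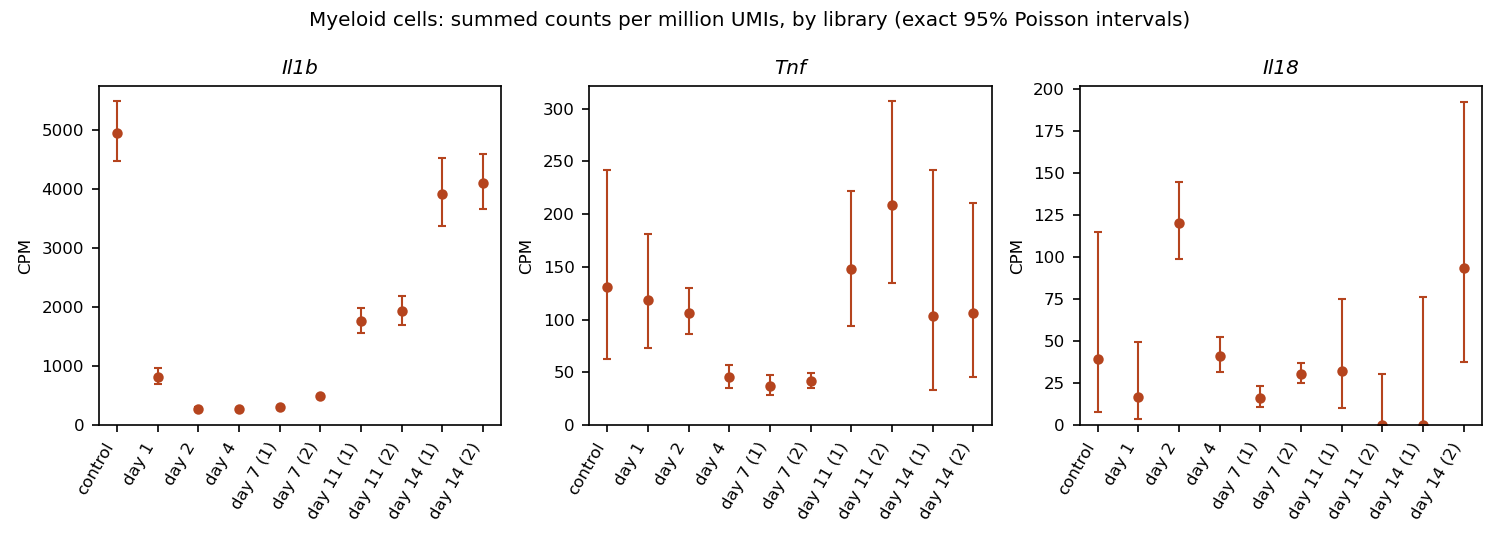
Il1b, Tnf and Il18 levels in myeloid cells (CPM, linear axes that differ by gene) by library, with exact 95% Poisson intervals. Il1b is at 4963 in the control and between 271.9 and 491.6 on days 2 to 7, and Tnf is lowest on day 7 at 37.19 and 41.84.

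In tubular cells Il1b was low in all libraries: 0.4873 CPM in the control, 13.08, 9.21 and 2.309 on days 1, 2 and 4, 13.94 and 5.082 on day 7, 2.728 and 4.387 for day 11, and 0.4488 and 1.287 for day 14. It rose to day 7 by 3.39 (edgeR, SE 0.75, adjusted p = 0.00554, 10.5-fold), or by 2.62 without the first day 7 library (adjusted p = 0.0195). In proximal and thick limb cells alone the value was 2.44 (edgeR adjusted p = 0.104) and 3.74 (adjusted p = 0.0543; 16 UMIs against 2 in the thick limb). Of Csf1, Il34 and Il1b, the members tested in collecting duct cells, Il1b alone passed (edgeR adjusted p = 0.0312). In all, 1195 genes were called there in either direction, against 5566 in all tubular cells. Il1b had 26 UMIs there on day 7 against 0 in the control. With the control set at 3 counts this is 6.16-fold, a value that leaves out the counting error of the 26 UMIs. The 2 day 7 libraries there stood at 15.47 and 3.131 CPM. The change to day 11 was -0.54 (edgeR adjusted p = 0.42). It was 0.23 without the first day 7 library, which stood above the second. Myeloid marker UMIs in the gated tubular cells were 0.2047 per 10000 in the control, 1.777, 3.715 and 5.195 on days 1, 2 and 4, 9.38 and 5.325 on day 7, 0.9107 and 1.165 for day 11, and 0.3176 and 0.3256 for day 14; 12 to 14 of the 14 markers were detected, with Chi3l3, C1qc or F13a1 at 0 in some libraries. Neutrophil marker UMIs there were 0.02512 per 10000 in the control, 1.588, 0.8616 and 0.1459 on days 1, 2 and 4, 0.5322 and 0.06191 on day 7, 0.01469 and 0.03103 for day 11, and 0.03341 and 0.02573 for day 14. Here 4 to 7 of the 7 markers were detected, with Retnlg, Mmp9 or S100a9 at 0 in some libraries. Like Il1b, they were highest on day 1 among days 1, 2 and 4 and higher in the first day 7 library than in the second. The part of either cell type in tubular Il1b was not tested. Per 1000 myeloid marker UMIs, Il1b had 14.87 and 9.544 UMIs in tubular cells of day 7, against 8.914 and 12.55 in myeloid cells. The control had 23.81 against 473.1, day 1 73.6 against 75.1, day 2 24.79 against 15.58 and day 4 4.444 against 8.612. Day 11 had 29.95 and 37.65 against 58.8 and 56.23, and day 14 14.13 and 39.52 against 217.7 and 183.4. In tubular cells without any of these marker UMIs Il1b rose to day 7 (edgeR adjusted p = 0.0106), from 12 UMIs on day 7 against 3 in the control, a ratio of summed CPM of 38.8 with a counting interval of 10.5 to 214.

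Tnf was found in both myeloid and tubular cells. In myeloid cells it was 131.3 CPM in the control (10 UMIs, interval 62.96 to 241.5), 118.8, 106.5 and 45.53 on days 1, 2 and 4, 37.19 and 41.84 on day 7, 147.7 and 208.2 for day 11, and 103.8 and 106.6 for day 14. Tnf rose in myeloid cells from day 7 to day 11 by 2.45 on the log2 scale (edgeR, SE 0.36, adjusted p = 1.73e-05, 5.48-fold). Both day 7 libraries lay below the control, with a log2 difference of -1.97 that did not pass (SE 0.6, adjusted p = 0.055). It passed with DESeq2 (-2, adjusted p = 0.0324), without the second day 7 library (-2.12, edgeR adjusted p = 0.048), with at least 6 marker UMIs (-2.24, edgeR adjusted p = 0.0396) and in C1q-positive cells alone (-2.47, edgeR adjusted p = 0.0221).

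In tubular cells Tnf was 0.1125 CPM in the control (3 UMIs), 2.022, 1.263 and 7.503 on days 1, 2 and 4, 8.134 and 10.9 on day 7, 1.154 and 0.107 for day 11, and 0.09973 and 0.2797 for day 14. It rose to day 7 by 5.56 on the log2 scale (edgeR, SE 0.89, adjusted p = 0.00082, 47.1-fold), from 153 UMIs against 3. The ratio of summed CPM, which is not TMM-scaled, was 89.9 with a counting interval of 30.2 to 441. Tnf fell by 3.15 to day 11 (edgeR, SE 0.61, adjusted p = 0.00198), and day 14 differed from the control by 0.76 (SE 1.23, adjusted p = 0.738), from 7 UMIs against 3. Per 1000 myeloid marker UMIs, Tnf had 14.44 UMIs in tubular cells on day 4 and 8.672 and 20.48 on day 7, against 1.442, 1.101 and 1.068 in myeloid cells of these libraries. The control had 5.495 against 12.52, day 1 11.38 against 10.8 and day 2 3.399 against 6.047. Day 11 had 12.67 and 0.9183 against 4.9 and 6.059, and day 14 3.14 and 8.591 against 5.76 and 4.765. Myeloid cells were themselves gated on these markers. In tubular cells with no myeloid or neutrophil marker UMI Tnf rose to day 7 (edgeR adjusted p = 0.00943), with 14 UMIs against 0 in the control. With the control set at 3 counts this is 45.3-fold, a value that leaves out the counting error of the 14 UMIs. The change to day 11 in these cells was -2.75 (edgeR adjusted p = 0.0614). By segment, Tnf rose to day 7 in proximal cells (edgeR adjusted p = 0.00324), from 36 UMIs against 1, a ratio of 149 with a counting interval of 25 to 6.03e+03. It did not pass in thick limb cells (edgeR adjusted p = 0.142; 8 UMIs against 1) and was under the filter on low counts in collecting duct cells (21 UMIs against 1). In cells gated by general or injury markers Tnf stood at 5.255, 5.107 and 14.13 CPM on days 1, 2 and 4, at 16.04 and 18.84 on day 7 and at 9.675 and 0 on day 11. Vcam1-positive cells had more in 6 of 8 libraries (13.71 against 2.548 CPM on day 4, 13.17 against 6.322 and 16.95 against 7.965 on day 7), with a mean log2 difference of 0.43 that did not pass (exact sign-flip adjusted p = 0.0938).

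Il18 was found in several tubular segments, podocytes and myeloid cells. Over all libraries it stood at 4.997 CPM in proximal cells (423 UMIs), 6.201 in cells gated by general or injury markers (65 UMIs), 3.814 in collecting duct cells (61 UMIs) and 0.8248 in thick limb cells (16 UMIs). Tubular levels were 2.287 CPM in the control, 3.37, 6.165 and 6.558 on days 1, 2 and 4, 5.578 and 5.821 on day 7, 1.784 and 1.712 for day 11, and 4.837 and 3.636 for day 14. Day 11 lay lowest, below the control, and both day 14 libraries lay above it. The fall from day 7 to day 11 was 0.94 on the log2 scale (edgeR, SE 0.34, adjusted p = 0.043). It did not pass with DESeq2 (-0.96, adjusted p = 0.175), with the 2 groups alone (-0.97, edgeR adjusted p = 0.0533) or without any 1 of the 6 libraries of days 7, 11 and 14 (edgeR adjusted p from 0.0551 without the second day 14 library to 0.148 without the second day 11 library). Day 7 and day 14 differed from the control by 0.55 (edgeR adjusted p = 0.265) and 0.97 (adjusted p = 0.108); with library totals the day 7 value was 1.32 (adjusted p = 0.0114). In collecting duct cells Il18 was under the filter on low counts (27 UMIs on day 7 against 7). Myeloid Il18 was 120.5 CPM on day 2 (112 UMIs, interval 99.23 to 145), 40.97 on day 4 and 16.2 and 30.48 on day 7; the other libraries held at most 7 UMIs each. None of its 3 myeloid comparisons passed in edgeR (adjusted p 0.76, 0.97 and 0.941). In podocytes Il18 stood at 31.81 to 75.02 CPM in 7 libraries, from 52 UMIs, and podocytes held 39.53% and 34.48% of its UMIs on day 11 (17 of 43 and 10 of 29).

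Il6 was near the limit of detection. All cells of a library together held 6 UMIs in the control, 2, 12 and 4 on days 1, 2 and 4, 7 and 6 on day 7, 2 and 2 for day 11, and 2 and 0 for day 14. This corresponds to at most 1.027 CPM (first day 7 library), and the 0 of the second day 14 library allows up to 0.1639 CPM (3 counts). Of the 43 UMIs, 14 were in endothelial cells (6 in the control, 1 on day 2 and 5 and 2 on day 7), 8 in mixed, 7 in tubular, 7 in myeloid, 5 in stromal and 2 in unassigned cells. Over all cells the levels of day 2 (0.7632 CPM, interval 0.3943 to 1.333) and of the first day 7 library (1.027, 0.4129 to 2.116) had counting intervals above those of both day 14 libraries (0.01176 to 0.3507, and 0 to 0.2016). The second day 7 library (0.383, 0.1405 to 0.8336) overlapped both. These intervals cover counting error only, and Il6 was not tested between days.

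The receptors were spread over several cell classes. Csf1r, the receptor of CSF1 and IL-34, had 254.5 to 622.6 CPM in myeloid cells and 2.525 to 10.23 in tubular cells. Il1r1, the signalling receptor of IL-1β, stood at 6.266 to 30.2 in collecting duct cells, with a median of 20.91, against a median of 0.588 in proximal cells. Il1r2, its decoy, stood at 198.2 and 373.7 in neutrophils. Il6ra, the IL-6 receptor subunit, had 148.6 to 265.1 CPM in podocytes and 66.63 to 170.7 in myeloid cells, and its partner Il6st (gp130) 36.38 to 83.2 in tubular cells. Tnfrsf1a, the TNF receptor TNFR1, had 103.9 to 267.7 in endothelial and 11.1 to 60.43 in tubular cells, and Tnfrsf1b (TNFR2) 39.39 to 83.01 in myeloid cells. Il18r1, the IL-18 receptor, was highest in lymphoid cells (86.17 to 178.7 in 4 libraries) and reached 47.41 in tubular cells.

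Beside the list counts below stand measures that differed between the same libraries. Myeloid marker UMIs in tubular cells were 0.2047 per 10000 in the control, 9.38 and 5.325 on day 7, and 0.9107 and 1.165 on day 11. Endothelial marker UMIs there were 0.1683 in the control and 0.746 and 0.3955 on day 7. Stromal ones were 0.1829, then 1.164 and 0.693, and lymphoid ones 0.01799, then 0.3231 and 0.1552. The part of these other markers was not tested. Proximal cells were 3634 of 5189 tubular cells in the control but 465 of 1654 and 650 of 2315 on day 7. Each list was therefore also counted in tubular cells with no myeloid or neutrophil marker UMI and in proximal cells alone, both added after the data were seen. Fewer genes passed over all genes in the first of these (11.5% higher and 13.3% lower on day 7) than in all tubular cells (16.2% and 18%), and in proximal cells it was 17.3% and 18.3%. To day 11 the shares were 18% higher and 15.2% lower in cells without marker UMIs, 18.9% and 18.3% in proximal cells, and 22.9% and 20.7% in all tubular cells. Cells without marker UMIs held 75 of 881 Csf1 and 97 of 839 Il34 UMIs of day 7. In the control they held 53 of 75 and 324 of 430. The part of these lower counts in calls lost there was not tested.

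Of the 11 genes listed as receptors of the members, 6 rose to day 7 in tubular cells and 0 fell (median log2 change 1.65, against 0.04 over all genes). The receptors that rose were 6 of 10 in cells without marker UMIs, 5 of 11 in proximal cells (2 fell there), 8 of 11 with library totals and 6 of 11 with DESeq2. Sdc1, a syndecan that can bind IL-34, rose by 2.98 (SE 0.28, edgeR adjusted p = 2.6e-05), from 4.911 to a mean of 66.51 CPM. Tnfrsf1a rose by 1.65 (SE 0.24, edgeR adjusted p = 0.000458), from 11.1 to 59.64. To day 11, 6 fell and 0 rose (median -1.31 against -0.07), Sdc1 by 2.09 and Tnfrsf1a by 0.93. Il18r1, named after its values were seen, had 527 UMIs on day 7 against 2 in the control, a ratio of summed CPM of 465 with a counting interval of 128 to 3.85e+03. In collecting duct cells it reached 56.42 CPM on day 7. On day 14, 0 of 11 were called against the control by edgeR, where 4.45% of all genes were higher and 3.19% lower, and 2 (Il18r1 and Tnfrsf1a) had an unadjusted p under 0.05. DESeq2 called 0 of 7. In tubular cells Csf1r did not change past the threshold on day 7 (-0.39, edgeR adjusted p = 0.383).

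Among 7 tested relatives, decoys and inhibitors of the IL-1 family, 2 rose and 1 fell to day 7 (median 1.29), near the shares over all genes of 16.2% higher and 18% lower. In cells without marker UMIs 1 of 5 rose and 0 fell, in proximal cells 2 of 7 and 0, with library totals 3 of 7 and 0, and with DESeq2 2 of 6 and 1. Il18bp, the secreted IL-18 trap, rose by 1.29 (edgeR adjusted p = 0.0049) and fell by 2.01 to day 11 (adjusted p = 0.000135), but its day 7 value was 0.41 in cells without marker UMIs (edgeR adjusted p = 0.514). Sigirr, an inhibitory receptor, fell by 0.9 (edgeR adjusted p = 0.0206; -0.13 with library totals, -0.82 in cells without marker UMIs and -0.63 in proximal cells, none of them called) and rose by 1.87 to day 11 (adjusted p = 9.01e-05). Il1rn, which encodes the IL-1 receptor antagonist and was named after its values were seen, had 278 UMIs on day 7 against 1 in the control, a ratio of 490 with a counting interval of 87.3 to 1.94e+04. Myeloid cells and neutrophils carry this transcript too (0 to 158.2 CPM, and 123.9 and 351.7 CPM). In tubular cells without myeloid or neutrophil marker UMIs Il1rn had 24 UMIs against 1 (edgeR adjusted p = 0.000465), and in proximal cells 86 against 1. To day 11, 1 rose and 3 fell (median -0.88). On day 14, edgeR called 1 of 7 higher than the control and 0 lower, where 4.45% of all genes were higher and 3.19% lower. It was also 1 of 7 with library totals, 1 of 3 with DESeq2, 1 of 7 in proximal cells and 0 of 5 in cells without marker UMIs.

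Of 13 genes of the inflammasome and cytokine release, 6 rose and 2 fell to day 7 (median 1.74), and 2 rose and 6 fell to day 11 (median -0.75). With library totals 9 rose and 0 fell to day 7, and 0 rose and 8 fell to day 11; with DESeq2 it was 6 and 1, then 0 and 6 of 12. In cells without marker UMIs 7 of 11 rose and 1 fell to day 7, and 0 rose and 6 fell to day 11. In proximal cells 5 of 12 rose and 2 fell, then 2 rose and 4 fell. Casp4, the mouse caspase-11 that senses intracellular lipopolysaccharide, rose by 6.41 (SE 0.43, edgeR adjusted p = 5.42e-06), from 0.3374 to 50.77 CPM, and fell by 3.9 to day 11. Pycard, the inflammasome adaptor, rose by 1.74 and Txnip, which binds thioredoxin, by 1.24 (edgeR adjusted p = 0.000746 and 0.00633). Pycard fell by 1.23 and Adam17, the protease that releases TNF, by 0.75 to day 11. Gsdmd, the pore protein through which IL-1β leaves cells, named after its values were seen, had 409 UMIs on day 7 against 1 in the control, a ratio of 721 with a counting interval of 129 to 2.86e+04. Furin and Nek7 were called lower on day 7 (-0.75 and -0.67, edgeR adjusted p = 0.0271 and 0.0208), but with library totals their changes were 0.03 and 0.11 and not called, and Furin on day 11 went from 0.57 to -0.21. On day 14, 1 of the 13 was called higher than the control and 0 lower with TMM and with library totals (4.45% of all genes higher with TMM). DESeq2 called 0 of 8, and 0 were called in proximal cells and in cells without marker UMIs.

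Of 21 genes tested in the NF-κB and TNF response list, 14 rose and 0 fell to day 7 (median 1.59 against 0.04 over all genes), and 15 fell and 1 rose to day 11 (median -1.38). Day 7 gave 20 higher with library totals, 13 with DESeq2, 13 in cells without marker UMIs and 15 in proximal cells, with 0 lower in each. Relb, an NF-κB subunit, rose by 3.56, Birc3, an inhibitor of cell death induced by NF-κB, by 3.55 and Nfkbie, an inhibitor of NF-κB, by 3.39 (edgeR adjusted p = 2.41e-05, 2.96e-05 and 6.47e-05). In cells without marker UMIs they rose by 3.35, 3.77 and 2.91. In all tubular cells they fell by 2.35, 2.6 and 2.87 to day 11. The 1 gene that rose to day 11, Irak2, a kinase below the IL-1 receptor, changed by 0.68 with TMM and by -0.1 with library totals. On day 14 Bcl3 (1.27, edgeR adjusted p = 0.0435) and Irak2 (1.09, edgeR adjusted p = 0.024) stood above the control, and DESeq2 called neither.

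Of 12 tested genes of the IL-6, OSM and STAT3 axis, 7 rose and 0 fell to day 7 (median 1.23), and 4 fell and 0 rose to day 11 (median -0.89). The number higher on day 7 was 10 with library totals, 5 with DESeq2, 4 of 11 in cells without marker UMIs and 6 in proximal cells. All 12 fell to day 11 with library totals, against 4 of 11 with DESeq2. Socs3, the feedback inhibitor induced by STAT3, rose by 2.7 (SE 0.26, edgeR adjusted p = 2.91e-05), from 10.01 to 111.1 CPM. Stat3 rose by 1.62 (edgeR adjusted p = 0.00015) and Pim1, a kinase induced by STAT3, by 0.84 (adjusted p = 0.0335; 0.91 with adjusted p = 0.09 in cells without marker UMIs). Stat3 and Jak2 fell by 1.45 and 1.49 to day 11. Il6 itself had 1 tubular UMI on day 7. On day 14 Cebpb stood below the control (-1.46, edgeR adjusted p = 0.0256).

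Of 11 tested other cytokines and colony-stimulating factors, 7 rose and 0 fell to day 7 (median 1.76, or 1.73 with genes at 0 set to their bound), and 6 fell and 1 rose to day 11 (median -1.78, or -1.71). The number that rose to day 7 was 9 with library totals, 3 of 10 with DESeq2, 4 of 9 in proximal cells (1 fell) and 0 of 8 in cells without marker UMIs. From day 7 to day 11, 9 fell with library totals, 4 of 9 with DESeq2 and 2 of 8 in cells without marker UMIs, and 0 rose in each of these. Tnfsf10, which encodes TRAIL, rose by 1.07 (edgeR adjusted p = 0.0106; 0.72 and not called in cells without marker UMIs, and -0.94 with adjusted p = 0.0184 in proximal cells), fell by 1.2 to day 11 and lay 1.29 lower than the control on day 14 (log2 difference -1.29, adjusted p = 0.0188). Kitl, the stem cell factor, fell by 1.9 to day 11 (edgeR adjusted p = 0.000218). Il15, which sustains natural killer cells, changed to day 11 by 0.78 with TMM (edgeR adjusted p = 0.0429) and by 0.01 with library totals, and stood above the control on day 14 (1.23, adjusted p = 0.0488; not called with library totals or DESeq2).

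In myeloid cells few genes of these lists were called. To day 11 Nfkbia, an inhibitor induced by NF-κB, rose by 1.66 (edgeR adjusted p = 0.000252), from a mean of 718.3 to 1851 CPM. Tnfaip3, which encodes the NF-κB brake A20, rose by 2.28 (adjusted p = 0.0199; 0.0513 with library totals), and Tnfsf9, a TNF family ligand, by 3.18 (adjusted p = 0.000421). Nfkbiz fell to day 7 by 1.28 (edgeR adjusted p = 0.0331; 0.118 with library totals). These were 2 of 14 NF-κB genes higher on day 11, 1 of 14 lower on day 7 and 1 of 3 other cytokines higher on day 11. Over all genes 3.8% were higher on day 11 and 2.45% lower on day 7. In the receptor, IL-1, inflammasome and STAT3 lists, with 5, 1, 13 and 8 genes tested, edgeR called 0 in any of the 3 comparisons. Over all genes it called 4.11% on day 7, 5.43% from day 7 to day 11 and 1.39% on day 14. At such shares lists of this size could hold 0 calls. On day 14 library totals called 1 of 13 tested inflammasome genes higher, and DESeq2 called lower the 1 gene of that list it tested. Over all genes library totals called 39 of 4822 higher there, and DESeq2 called 35 of 1021 lower.

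As a description with no test, the genes whose log2(CPM + 1) followed each member most closely over the 10 tubular sums were listed among 6336 genes with a mean of at least 20 CPM. Libraries of one day and the shift of segments between days are shared by all genes. For Csf1 they were Spns2 (Pearson r = 0.994), Stat3 (0.993) and Tes (0.992). For Il34 they were Pak1ip1 (0.964), Spag7 (0.958) and Actl6a (0.953), and for Il1b Gm13248 (0.942), Gm13139 (0.936) and Sparc (0.934). The other members had tubular means under 5 CPM and were not compared.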

How the data were processed

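Single cells of mouse kidney cortex were measured by Drop-seq in 10 libraries, with PCR-amplified cDNA and 3' end libraries, per the labels' protocols. Each deposited table holds counts per gene symbol and cell barcode; they were whole numbers and were read as UMI counts, which the labels do not state. Bowtie2 2.2.7 and mm10 are given per the submitters' processing notes; the annotation, the way UMIs were collapsed and the use of strand are not given in the sources used here. Both day 11 tables go down to 300 genes per barcode and the others to 500.

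A barcode was kept with 500 or more UMIs, 500 or more genes and no more than 50% of UMIs from mitochondrial genes. Scrublet (scanpy 1.11.5) marked no more than 0.1109% of any library by its automatic threshold, so cells in the top 5% of doublet scores were removed from each. A cell was given the lineage whose markers summed to at least 3 UMIs from at least 2 genes and to at least 2 times those of every other lineage; otherwise it was mixed or unassigned. A class is reported where it had at least 20 cells in a library, with an exception stated for C1q-positive cells. Names are resemblances by these gates.

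Counts were summed per library and class. Days 7, 11 and 14 and the control were compared with edgeR 4.0.16 (R 4.3.3; quasi-likelihood F test, filterByExpr, TMM, Benjamini-Hochberg adjustment over all genes tested, threshold 0.05), with 1 term per group over all 10 libraries; standard errors were taken from the F statistic. DESeq2 1.42.0 was an alternative. Unless another scaling is named, log2 changes and the folds given with them are TMM-scaled. CPM values, ratios with a counting interval and folds given as at least a value against a count floor are not. On data simulated for day 7 against control with 200 genes changed 4-fold, 165 were recovered in tubular cells (15224 genes, 6 false calls) and 127 in myeloid cells (4692 genes, 5 false calls). The simulation gave all genes the same dispersion and raised as many genes as it lowered. Changed genes were drawn only from those with higher expected counts in the smallest library. These figures thus do not cover genes with lower counts, other spreads or unbalanced changes. Classes were compared within libraries by exact two-sided sign-flip tests on log2(CPM + 10). Libraries of the same day differed beyond sampling noise (chi-square per degree of freedom 2.45 to 27.9). The labels do not say that they came from separate animals, so p-values may measure technical spread.

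Members, markers and gene lists were chosen with earlier results of these data known, so counts over a list are descriptions. Of each list the text names, per comparison, up to 3 called genes higher and 3 lower, those that changed most, with a mean log2 CPM of at least 3; exceptions are said to be named after their values were seen. Promoters come from RefSeq and match 5 of the 6 members.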

Additional observations from a re-analysis of the deposited data

Results flagged for a closer look

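Il1b, Tnf and Il18 were picked out because the libraries of tubular cells moved one way and those of myeloid cells the other way between the same days; these differences between classes were not tested. From control to day 7, Il1b went to a mean of 9.511 CPM in tubular cells (from 0.4873) and to 396.4 in myeloid cells (from 4963). From day 7 to day 11 Il1b went to means of 3.558 and 1852 CPM. Tnf went to 9.517 CPM in tubular cells on day 7 (from 0.1125) and to 39.52 in myeloid cells (from 131.3), and on day 11 to 0.6305 and 177.9. Il18 went to 5.7 CPM in tubular cells on day 7 (from 2.287) and to 23.34 in myeloid cells (from 39.39, 3 UMIs). Neither Il18 change passed edgeR's test, nor did the tubular Il1b change from day 7 to day 11 (-0.54, adjusted p = 0.42) or the myeloid Tnf change from control to day 7 (-1.97, adjusted p = 0.055). Myeloid marker UMIs in the tubular cells were also higher on day 7 than in the control and on day 11, as given with the results, and their part was not tested.

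Cells that the gates called mixed or unassigned entered none of the comparisons, and in some libraries their counting interval lay above that of the control. Csf1 stood at 141.9 CPM in mixed cells on day 2 (74 UMIs, against 59.94 in the control), and Il34 at 54.21 and 52.98 CPM in mixed cells on day 7 (11.24 in the control, 3 UMIs). Tnf stood at 33.58 CPM in mixed cells on day 1, 29.94 in the second day 7 library, 41.22 in the first day 11 library and 49.63 in the first day 14 library, from 7 to 13 UMIs each, against 0 in the control (up to 11.24 CPM, 3 counts). Il1b stood at 325.7 CPM in the 57 unassigned cells of day 1 (19 UMIs), against 0 in the control (up to 61.23 CPM, 3 counts). Mixed cells hold markers of more than 1 lineage by definition.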

How the results depend on the processing

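Csf1 (tubular) and Il1b (myeloid) kept their direction and their call in both day 7 against control and day 11 against day 7 under each scaling, filter, gate, doublet and left-out-library alternative over all cells of the class. Of 417 member log2 changes compared with an alternative, 373 kept direction and side of the threshold, 16 reversed, 9 gained and 19 lost the call. Members called in tubular cells on day 7 (4) became 2 in thick limb and 1 in collecting duct cells, alternatives added after the data were seen. Over all genes the number called went from 5566 to 2366 and 1195 in these segments. Those called from day 7 to day 11 (3) became 5 with library totals, 1 in collecting duct cells, 1 without tubular cells holding a myeloid or neutrophil marker UMI and 2 without any 1 replicate. Members called in myeloid cells on day 7 (1) became 2 with DESeq2, 6 marker UMIs or C1q-positive cells alone, and ranged from 1 to 2 when a replicate was left out. Within libraries, the 4 members called between tubular and myeloid cells became 0 with replicates averaged or at least 50 cells, and the 2 called by Vcam1 became 0 with these, with 6 marker UMIs and without marker-bearing tubular cells; these settings left 5 to 7 pairs, too few to pass here.

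Reversals were all of changes that had not passed. Tubular cells, day 11 against day 7: Il34 0.54 in collecting duct cells and Il1b 0.23 without the first day 7 library (-1.16 without the second). Tubular cells, day 14 against control: Csf1 0.18 without the first day 14 library and -0.65 without the second, 1.81 in thick limb and 0.03 in collecting duct cells; Il34 0.24 in collecting duct cells; Il1b -0.04 and Tnf -0.09 without the second day 14 library (Tnf 1.33 without the first); Tnf -0.01 with doublets kept and -2.04 in thick limb cells, from 0 UMIs on day 14 and 1 in the control, which shows no direction. Myeloid Il18, day 11 against day 7: 0.53 without the second day 7 library, 0.75 without the second day 11 library and -7.43 without the first, which left 0 UMIs on day 11 so that the value is no measure of size, 0.5 with the highest lineage alone and 0.15 in C1q-positive cells; day 14 against control -8.34 without the second day 14 library, which likewise left 0 UMIs, 1.15 without the first, and -0.72 in C1q-positive cells. C1q-positive against C1q-negative cells: Csf1 -0.05 with 50 cells; Il18 -0.39 with the highest lineage, -0.42 with 6 UMIs, -0.25 with 50 cells and -0.17 with doublets kept. Havcr1: Csf1 -0.21 and Il18 -0.13 with a pseudocount of 1 CPM, and Tnf -0.01 without marker-bearing tubular cells. The cause was not tested.

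Counts over all genes moved by over 1.5 times in 26 of 106 settings. Tubular day 7 (5566): 8852 with library totals, 2366 in thick limb, 1195 in collecting duct and 3666 in cells without myeloid or neutrophil marker UMIs. Day 11 against day 7 (7097): 4640 without the second day 11 library, 3198 in thick limb and 1923 in collecting duct cells. Day 14 (1246): 2324 without a filter, 3370 with the 2 groups alone, 385 to 2290 without a replicate, 213 in thick limb and 262 in collecting duct cells. Myeloid day 7 (198): 127 with DESeq2. Day 11 against day 7 (262): 98 and 165 without the second and first day 11 library. Day 14 (67): 107 with the 2 groups alone, 24 to 126 without a replicate, 37 with the highest lineage, 36 with 6 UMIs and 17 in C1q-positive cells.

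Replicate numbers did not pair the libraries: the correlation of replicate differences between days was -0.068 to 0.083 in both classes. With the replicate block, fitted on days 7, 11 and 14 for day 11 against day 7, members called were 3 in tubular (7099 genes in all; 7059 unblocked on these days) and 2 in myeloid cells (222; 180 unblocked), and the block changed no member's call. Depth limits Il6, myeloid Csf1 and Il34, and all myeloid levels of the control and day 14 (38 to 48 cells).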
